A study of Mus musculus with 24 samples.

Results

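The 5 mature miRNAs described here are mmu-miR-23a-3p, mmu-miR-27a-3p, mmu-miR-23b-3p, mmu-miR-27b-3p and mmu-miR-24-3p. They were chosen by name, as the main products of the miR-23/27/24 hairpins, from the 1881 miRNAs on the arrays. Each of 24 one-colour Agilent arrays held RNA of 1 tissue from 1 lens group of C57BL/6J mice. The tissues were cornea, iris, lens, retina, RPE/choroid (labelled choroid), sclera and the brain regions labelled SCN and LGN. The lens groups were normal mice with no lens (labelled Control), mice with a 0 D lens, and mice with a −30 D lens (labelled Lens-induced), the minus lens being used to induce myopia. Per the study's methods, lenses were worn over the right eye from 3 weeks of age for 3 weeks, the mice were male, and eye tissues of 3 mice were pooled for each normal and −30 D array. The sources used here state no pooling for the 0 D group or the brain regions. No gene was deleted or added in any group.

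There was 1 array for each tissue and lens group, so the 3 lens groups stood in as the 3 arrays of a tissue, and every SD given for a tissue includes any effect of the lens. Each slide held the 8 tissues of 1 lens group. Tissue comparisons were therefore repeated within each of the 3 slides, whereas lens group and slide cannot be told apart. Between 129 and 249 miRNAs were detected per array, a miRNA being detected when a probe's signal exceeded 3 times its error. The number of arrays limits the precision. Lens arrays detected 129 to 149 miRNAs and cornea arrays 137 to 172, against 213 to 249 on the other arrays. Before scaling the lens arrays were the dimmest by the percentile that the scaling used, and they were multiplied by the largest factors (1.27 to 1.66 on the log2 scale).

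MicroRNAs are short RNAs that guide silencing complexes to messenger RNAs, mainly through the seed at bases 2 to 8. In vertebrates the miR-23, miR-27 and miR-24 hairpins lie next to each other in a pair of gene copies, the a cluster and the b cluster, and the hairpins of a cluster are cut from a common primary transcript. miR-23 and miR-27 are known for roles in endothelial cells, where they target inhibitors of vessel sprouting such as Sprouty2 and Sema6A, and in the eye they have been linked to choroidal vessel growth. miR-24 is known for effects on endothelial cell survival and on the actin cytoskeleton, and miR-27 also targets the adipogenic factor PPARγ.

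The mature sequences are shown because they set which products an array can tell apart. RefSeq held entries for 4 of the 5 members (build GRCm38.p6). They are written 5′ to 3′ with the seed in capitals.
mmu-miR-23a-3p: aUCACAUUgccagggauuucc
mmu-miR-27a-3p: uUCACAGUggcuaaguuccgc
mmu-miR-27b-3p: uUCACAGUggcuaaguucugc
mmu-miR-24-3p: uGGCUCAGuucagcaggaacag
mmu-miR-27a-3p and mmu-miR-27b-3p shared the seed UCACAGU and differed at 1 of 21 bases, C19U, counted from the 5′ end of miR-27a. The seeds of mmu-miR-23a-3p and mmu-miR-27a-3p differed at 1 of 7 bases, at U7G of the mature miR-23a. The a cluster lay on the plus strand of chromosome 8, with Mir23a, Mir27a and Mir24-2 within chr8:84208518-84208921, a span of 404 bases between Mir181c and Zswim4. The mature miR-23a-3p lay at chr8:84208563-84208583 and miR-27a-3p at chr8:84208727-84208747. The b cluster lay on the plus strand of chromosome 13, with Mir23b, Mir27b and Mir24-1 within chr13:63300484-63301275, a span of 792 bases inside the bounds of Aopep, an aminopeptidase gene, with Fancc next to it. The mature miR-27b-3p lay at chr13:63300760-63300780. The same 22 bases of miR-24-3p were encoded at chr8:84208875-84208896 and at chr13:63301251-63301272, so its signal sums the products of both clusters.

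Each member was read by 2 probes of 15 spots each, and its signal is the sum over the probes above 3 errors. No spot of a member was saturated, and 118 of the 120 member signals were detected. The probe pairs of a member followed each other across the arrays, with Pearson's r on the log2 scale between 0.988 (miR-27b, over 17 arrays on which both probes were above 3 errors) and 0.999. For miR-27a the dimmer probe stood below the brighter one by a mean log2 ratio of −2.18 in cornea and −2.29 in retina, and for miR-23a by −1.80 and −1.85. The letters of the probes were not used here, and how much of the signal of one paralog comes from the other was not tested. Signals are given after each array was scaled to an equal 75th percentile over the 79 miRNAs detected on every array. Signals of different miRNAs come from different probes, so their levels are not compared with each other, only the way their difference changes from tissue to tissue.

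The a cluster members were high in the iris, cornea, sclera and RPE/choroid and low in the neural tissues and the lens. In the iris, miR-23a-3p gave 537 (normal), 547 (0 D) and 504 (−30 D), a mean scaled signal of 529 ± 22.4 (SD, n = 3). In the same order the sclera gave 461, 591 and 388, the RPE/choroid 404, 569 and 465, and the cornea 423, 456 and 402. The iris arrays all lay above the cornea arrays and the other pairs of these 4 tissues overlapped, but no pair differed past the threshold (limma, Benjamini-Hochberg adjusted p under 0.05). miR-23a-3p gave 135, 81.4 and 99.9 in the SCN, 87.8, 106 and 104 in the LGN, and 93.9, 105 and 97.5 in the lens, and these 3 tissues did not differ past the threshold from each other either. The retina was lowest, at 48.7, 52.2 and 46.9, and its mean of 49.2 ± 2.69 (SD, n = 3) was 10.75-fold below the iris mean. No retina array reached the lowest array of any other tissue.

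miR-27a-3p was highest in the cornea, with 559 (normal), 583 (0 D) and 549 (−30 D), a mean of 564 ± 17.5 (SD, n = 3). The iris gave 385, 371 and 378, the sclera 378, 384 and 309, and the RPE/choroid 335, 341 and 365. The cornea stood above each of these 3, which did not differ past the threshold from each other. The lens gave 128, 133 and 140, the SCN 135, 74.96 and 101, and the LGN 80.5, 98.8 and 102. The lens and LGN arrays did not overlap, the SCN and LGN arrays did. The retina was again lowest, with 45.2, 44.4 and 40.3, a mean of 43.3 ± 2.63 (SD, n = 3), 13.0-fold below the cornea.

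The b cluster members were also high in the cornea, sclera and RPE/choroid, and miR-23b in the iris as well, but both fell less far in the retina and brain than the a cluster members. miR-23b-3p gave 433 (normal), 440 (0 D) and 365 (−30 D) in the sclera, a mean of 412 ± 41.5 (SD, n = 3). The cornea gave 374, 391 and 371, the RPE/choroid 324, 355 and 369, and the iris 278, 281 and 277. Of these 4 tissues, the iris was below cornea and sclera past the threshold, and the other neighbours in the order did not differ past it. The LGN gave 157, 186 and 190, the SCN 160, 122 and 121 and the retina 100.1, 105 and 96.4, each step down past the threshold. The LGN and SCN arrays overlapped, and their step was near the threshold (SCN minus LGN −0.41, limma adjusted p = 0.0441). The lens was lowest, with 40.6, 59.5 and 44.2, and its mean of 48.1 ± 10.02 (SD, n = 3) was 8.57-fold below the sclera. The 0 D lens value summed 2 probes, as in the sclera, but the normal and −30 D lens values rested on 1. The lens SD and fold therefore include this difference in probes. The tissue at the bottom thus differed between the paralogs, the retina for miR-23a and the lens for miR-23b.

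miR-27b-3p gave 90.0 (normal), 84.8 (0 D) and 77.4 (−30 D) in the cornea, with a mean of 84.0 ± 6.34 (SD, n = 3). The sclera gave 88.3, 93.5 and 68.1 and the RPE/choroid 64.1, 75.1 and 69.0. These 3 tissues did not differ past the threshold. The LGN gave 34.4, 43.4 and 42.6 and the iris 39.3, 38.8 and 40.5, which overlapped. The retina gave 30.1, 31.1 and 21.8, and the SCN 29.6, 20.7 and 19.2, which overlapped too. The SCN values and the −30 D retina value came from 1 probe above 3 errors, those of the other arrays outside the lens from 2. Of the lens arrays the 0 D one alone detected it, at 13.3 with an array error of 3.89, while on the normal and −30 D lens arrays it stayed under limits of 27.05 and 27.8. A limit here is 3 errors summed over both probes. Since 1 probe above 3 errors sufficed for detection, a detected signal could lie below it, as the 0 D value did (limit 22.65). The limits of 27.05 and 27.8 are above the 0 D value, so no fold is given for the lens.

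miR-24-3p, the product common to both clusters, gave 799 (normal), 863 (0 D) and 656 (−30 D) in the sclera, a mean of 772 ± 106 (SD, n = 3). The RPE/choroid gave 697, 778 and 752. The iris gave 711, 689 and 727, and these 3 tissues did not differ past the threshold. The cornea, at 525, 500.2 and 490.0, lay below all of their arrays. The LGN gave 280, 307 and 343 and the SCN 357, 234 and 267, which overlapped. The retina gave 180, 161 and 159 and the lens 145, 140 and 151, at the bottom of the order, with the lens mean of 145 ± 5.63 (SD, n = 3) 5.33-fold below the sclera. The lens and retina arrays did not overlap, but their difference did not pass the threshold.

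**Figure D1:**
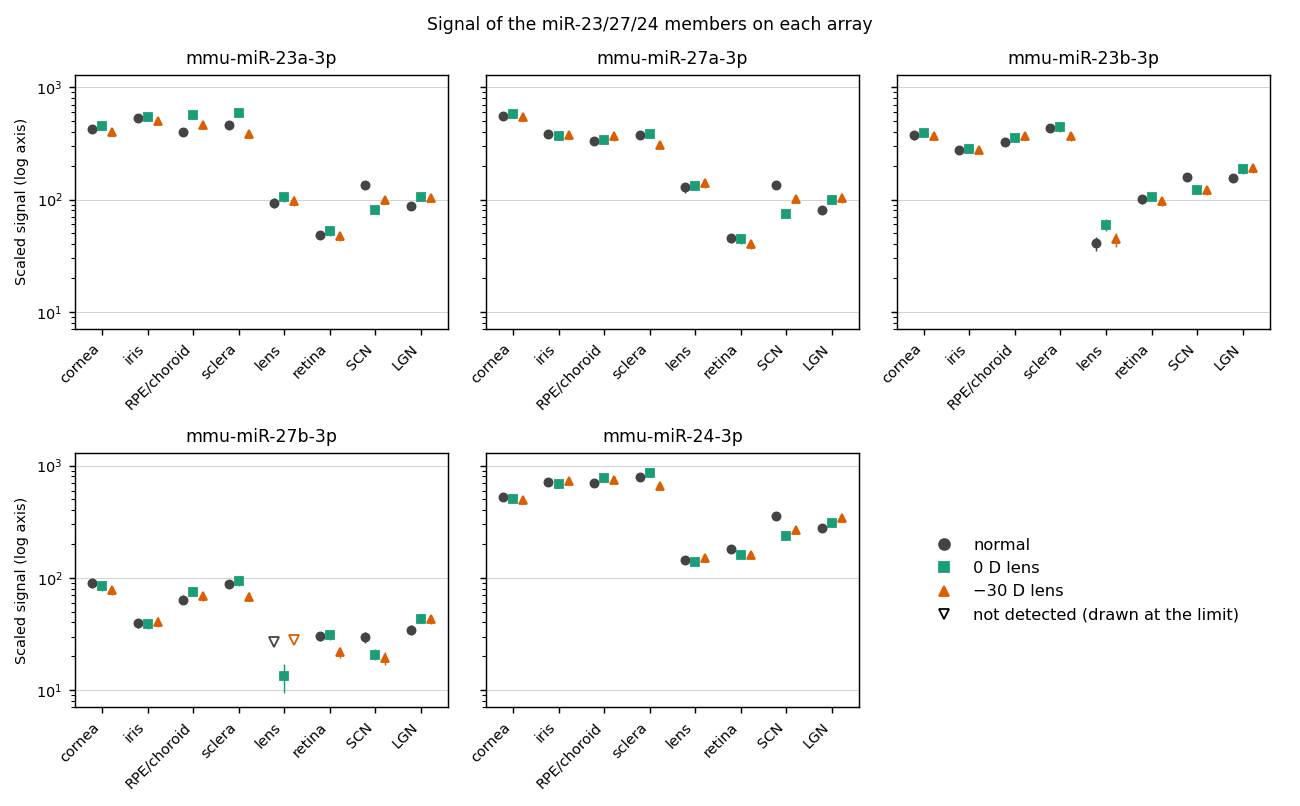
Scaled signal (log axis) of each member on each of the 24 arrays, by tissue; circles are normal, squares 0 D and triangles −30 D arrays, bars are the array's own error of the signal, and open triangles mark the limit where miR-27b was not detected. Cornea, iris, RPE/choroid and sclera form the upper level in every panel except that of miR-27b, where the iris sits near 39.5 beside the LGN.

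Over all 28 tissue pairs, 19 differed for miR-23a, 24 for miR-27a, 24 for miR-23b, 23 for miR-27b and 23 for miR-24 (limma, adjusted p under 0.05). Over all 337 miRNAs tested, 70.9% of such pairs differed, and the test over the 8 tissues called 100% of the 337, the 5 members among them. Tissue differences of some kind were therefore general on these arrays, and the members are described by size rather than by count. In tissue samples, fewer cells of a type and less RNA per cell cannot be told apart.

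The neural tissues (retina, SCN and LGN) were set against the mean of the other 5 tissues. miR-23a was lower by a log2 difference of −2.12 (SE 0.096, limma adjusted p = 2.75e-13) and miR-27a by −2.12 (SE 0.091, adjusted p = 1.4e-13). The b cluster members were lower by −0.82 (miR-23b, SE 0.081, adjusted p = 2.6e-08) and −0.64 (miR-27b, SE 0.099, adjusted p = 8.45e-06), and miR-24 lay between, at −1.02 (SE 0.082, adjusted p = 1.23e-09). All 5 passed in a comparison that called 87.5% of 337 miRNAs, with 48.4% of the 337 called as lower in neural tissue. The median log2 difference over all 337 was −0.27. Among the 79 miRNAs detected on all 24 arrays, where the median was −0.03, miR-27a had rank 7 and miR-23a rank 8 from the lowest, miR-24 rank 25 and miR-23b rank 28. The size depended on the scaling. Without it the median over all miRNAs was 0.42, the shares called lower and higher were 37.1% and 51.9%, the a cluster members stayed lower at −1.43 each, miR-23b was at −0.13 (adjusted p = 0.249) and miR-27b at 0.05 (adjusted p = 0.652). With quantile normalization the median was 0.05 and the shares 42.4% and 47.2%, and with normexp background correction −0.40, 67.1% and 22.8%, and under both all 5 members stayed lower.

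The difference between paralogs on the same array does not depend on the scaling to a common percentile, and it separated the clusters. The log2 signal of miR-23b minus that of miR-23a was 1.04 (normal), 1.01 (0 D) and 1.04 (−30 D) in the retina, 0.84, 0.81 and 0.87 in the LGN, and 0.24, 0.59 and 0.27 in the SCN. The cornea stood at −0.18, −0.22 and −0.11, the iris at −0.95, −0.96 and −0.86, and the lens at −1.21, −0.82 and −1.14. On the normal and −30 D lens arrays miR-23b was summed over 1 probe, on the 0 D lens array over 2. All 9 neural arrays lay above all 15 other arrays, since the sclera (−0.20 ± 0.195, SD, n = 3) and the RPE/choroid (−0.44 ± 0.206) were also below zero. The value of zero has no meaning of its own, as the probes differ in brightness. The rise from the other tissues to the neural ones was 1.30 (SE 0.079, limma adjusted p = 2.31e-11), a shift of miR-23b over miR-23a towards neural tissue that held in each lens group.

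The same held for the miR-27 pair. miR-27b minus miR-27a was −0.58, −0.51 and −0.89 in the retina and −1.23, −1.19 and −1.26 in the LGN. The sclera stood at −2.10, −2.04 and −2.18, the cornea at −2.64, −2.78 and −2.83 and the iris at −3.30, −3.26 and −3.22. The retina and LGN arrays were above all others, whereas the SCN, at −2.18, −1.85 and −2.40, overlapped the sclera and the RPE/choroid. On the SCN arrays and the −30 D retina array miR-27b was summed over 1 probe, against 2 in the LGN, sclera and RPE/choroid. A sum over 1 probe is lower than over 2, and the part of this in the overlap was not tested. The rise to neural tissue was 1.48 (SE 0.076, adjusted p = 2.24e-12), with miR-27b set at each array's lowest detected signal on the lens arrays that did not detect it. Without the lens it was 1.26 (adjusted p = 1.22e-10), and over the 6 eye tissues, where the retina is the single neural tissue, 2.17 (adjusted p = 2.24e-09).

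Averaged over both pairs, the b cluster rose over the a cluster by 1.39 (SE 0.073, adjusted p = 3.34e-12) from the other tissues to the neural ones, and by 1.05 to 1.88 under the alternatives tried. The retina had the highest mean difference (0.18 ± 0.093, SD, n = 3), then the LGN (−0.20 ± 0.005), the SCN (−0.89 ± 0.225), the sclera (−1.15 ± 0.072), the RPE/choroid (−1.38 ± 0.041), the cornea (−1.46 ± 0.048) and the iris (−2.09 ± 0.042). The retina differed from the LGN by 0.38 (adjusted p = 0.0293) and from the SCN by 1.07 (adjusted p = 2.85e-06). The SCN did not differ past the threshold from the sclera (sclera minus SCN −0.27, 95% interval −0.57 to 0.03, adjusted p = 0.0933). In that comparison miR-27b came from 1 probe in the SCN and 2 in the sclera, and the part of this was not tested. The 3 neural tissues therefore did not form one level in this measure, and the contrast between neural and other tissues was carried most by the retina and LGN.

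Between neural and other tissues, members of the same cluster moved more alike than paralogs did. miR-27a minus miR-23a showed no difference between neural and other tissues past the threshold (−0.00, 95% interval −0.13 to 0.13, adjusted p = 0.998), except with quantile normalization (−0.12, adjusted p = 0.0443), though the cornea (0.40 ± 0.048, SD, n = 3) and the lens (0.43 ± 0.090) stood above the iris (−0.48 ± 0.074), the RPE/choroid (−0.45 ± 0.253) and the sclera (−0.41 ± 0.183). miR-27b minus miR-23b rose by 0.18 (SE 0.065, adjusted p = 0.0161), a call that did not last. It was lost without the normal arrays (0.15, adjusted p = 0.171), without the 0 D arrays (0.17, adjusted p = 0.106), with quantile normalization (0.29, adjusted p = 0.133), with undetected values at 0.1 (1.04, adjusted p = 0.0825) and with no filter (0.18, adjusted p = 0.233). Across the 24 arrays, Pearson's r of log2 signals was 0.963 within the a cluster and 0.963 within the b cluster, against 0.831 between miR-23a and miR-23b and 0.653 between miR-27a and miR-27b. The miR-27 pair had the lowest r of these 4 pairs. Lens arrays that did not detect miR-27b entered its r values at the array's lowest detected signal. How far this changed r was not tested. The r values describe arrays that share tissues and scaling.

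**Figure D2:**
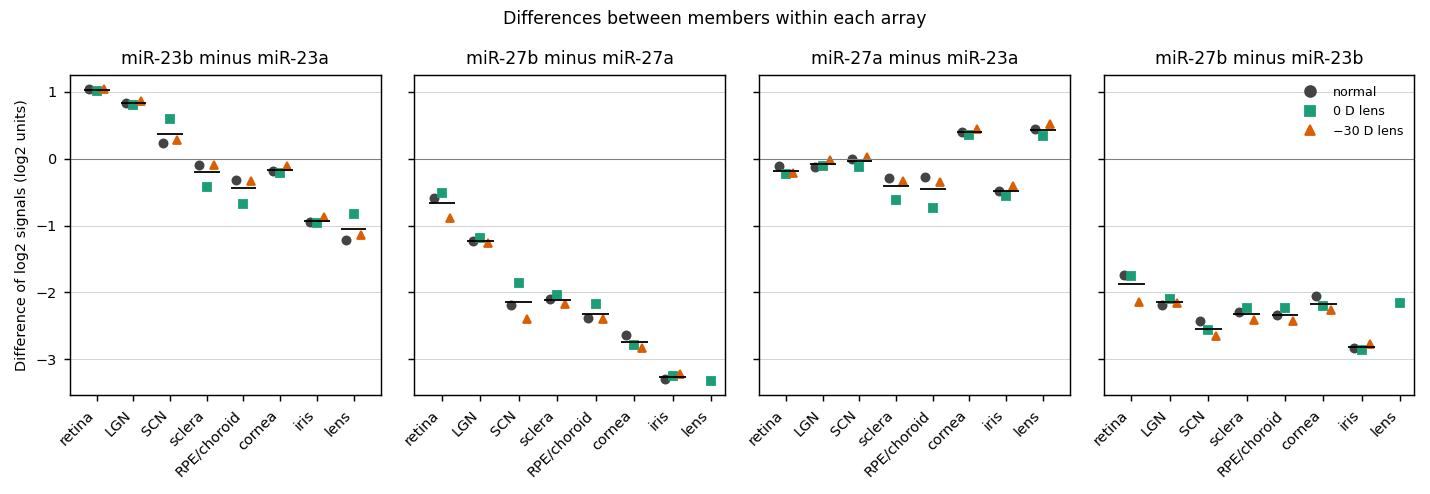
Difference of log2 signals (log2 units) between members on the same array, by tissue, with lines at the tissue means; circles are normal, squares 0 D and triangles −30 D arrays. Both differences between paralogs fall from retina and LGN to iris and lens, over a range of about 2 log2 units or more, while the differences within a cluster span less.

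The iris, RPE/choroid and sclera, grouped here as the vascular coats, were set against the tissues that lack vessels in the adult (cornea and lens). The comparison was made as miR-23 and miR-27 are known from endothelium. The grouping and its name were a choice and not a measure of vessels, and the sclera in it also gave the highest sum of the mesenchymal markers described below (985 to 1132). Retina and brain, where an endothelial marker was also detected, were left out. All 5 members were higher in the vascular coats, by 1.26 (miR-23a, SE 0.119, limma adjusted p = 2.78e-08), 0.39 (miR-27a, SE 0.114, adjusted p = 0.00425), 1.35 (miR-23b, SE 0.102, adjusted p = 1.14e-09), 1.05 (miR-27b, SE 0.124, adjusted p = 4.43e-07) and 1.45 (miR-24, SE 0.102, adjusted p = 4.4e-10). The comparison called 83.7% of the 337 miRNAs, with 25.8% of the 337 called as higher. The medians over all 337 and over the 79 miRNAs detected everywhere were −0.73 and 0.39. Among those 79, of which 88.6% were called, miR-24 had rank 6 from the highest, miR-23b 9, miR-23a 13 and miR-27a 40. Undetected miRNAs entered the 337 at values of 4.06 to 9.93 on cornea and lens arrays. On the arrays of the vascular coats these values were 1.09 to 4.35. The part of this in the share of 25.8% and the median of −0.73 was not tested. Without scaling the first median was 0.72 and 54% were called higher, with quantile normalization 0.18 and 46%, and with normexp −1.04 and 13.4%. Most of this rested on the lens, whose part in the comparison was measured by leaving it out. Apart from the lens, the call for miR-27a was lost with quantile normalization (0.18, adjusted p = 0.0754) and with no filter (0.39, adjusted p = 0.0523). Without scaling the differences were larger, at 2.70 for miR-23a, 1.84 for miR-27a, 2.79 for miR-23b, 2.50 for miR-27b and 2.90 for miR-24. With the lens arrays left out, the cornea stood alone as the avascular tissue, and the difference was 0.20 for miR-23a (adjusted p = 0.251), −0.65 for miR-27a (adjusted p = 0.00109), −0.15 for miR-23b (adjusted p = 0.272), −0.46 for miR-27b (adjusted p = 0.0106) and 0.55 for miR-24 (adjusted p = 0.00161). With normexp, miR-27b was lower in the vascular coats by −0.30 with the lens included (adjusted p = 0.000782). In this comparison the a cluster members moved apart, with miR-27a minus miR-23a at −0.87 (SE 0.079, adjusted p = 1.9e-08), and −0.85 without the lens (adjusted p = 3.31e-06). miR-23b minus miR-23a was 0.09 (95% interval −0.12 to 0.30, adjusted p = 0.402), and miR-27b minus miR-27a was 0.66 (adjusted p = 4e-06), which was 0.19 without the lens (adjusted p = 0.138) and −0.51 with normexp (adjusted p = 3.74e-08).

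Cell type markers ran as follows. mmu-miR-126a-3p, which is made in endothelial cells, was detected in the cornea on the −30 D array alone (86.5) and on no lens array, and its partner strand mmu-miR-126a-5p was not detected on all 3 arrays of any tissue. The sum of both was 1030 to 1208 on RPE/choroid arrays, 242 to 393 on sclera arrays, 329 to 350 on iris arrays, 164 to 198 in the SCN, 160 to 214 in the LGN and 67.5 to 75.1 in the retina. Every member was high in the cornea, where the endothelial markers were undetected on 2 of 3 arrays. On the third, mmu-miR-126a-3p at 86.5 lay above the retina arrays. The smooth muscle and pericyte pair (mmu-miR-143-3p and mmu-miR-145a-5p) was detected on no cornea, lens or retina array and summed to 319 to 331 in the iris. The surface epithelial markers mmu-miR-205-5p, mmu-miR-203-3p and mmu-miR-200c-3p were all detected on each cornea array, where they summed to 1463 to 1709. They summed to 13.4 to 18.7 in the iris and were detected in no other tissue. The mesenchymal pair mmu-miR-199a-3p and mmu-miR-214-3p summed to 985 to 1132 on sclera arrays and 423 to 465 on RPE/choroid arrays, with 227 to 260 on cornea arrays, 95.8 to 112 on iris arrays and none on lens arrays. The part of these cell types in the levels of the members was not tested.

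The labels of the tissues were set against the same markers. The photoreceptor markers (mmu-miR-183-5p, mmu-miR-96-5p and mmu-miR-182-5p) summed to 14500 to 16170 in the retina. They also reached 814 to 1436 on RPE/choroid arrays, 441 to 1094 on sclera arrays, 131 to 427 on lens arrays and 214 to 245 on cornea arrays, with at most 32.8 in the iris and 8.21 in the brain regions. The neuronal pair mmu-miR-124-3p and mmu-miR-9-5p reached 10250 to 11460 in the retina, 1486 to 1574 in the SCN and 1688 to 2189 in the LGN, with 576 to 993 on RPE/choroid arrays, 321 to 587 on sclera arrays and 105 to 390 on lens arrays, although the lens holds no neurons. The oligodendrocyte pair was detected on every SCN and LGN array. Of the pair, mmu-miR-219a-2-3p was detected in no other tissue. mmu-miR-338-3p was also detected on 2 of 3 cornea arrays and on all arrays of the other eye tissues, with a mean of 52.6 in the retina against 215 in the SCN and 545 in the LGN. The lens arrays also held striated muscle markers at 361 to 402. The part of retinal RNA in the members' values outside the retina was not tested. Pigment cell and blood cell markers were also measured. mmu-miR-204-5p and mmu-miR-211-5p were both detected in all 6 eye tissues, with a sum of 571 to 1377, and the 4 blood cell markers summed to at most 118, with none detected in the lens.

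**Figure D3:**
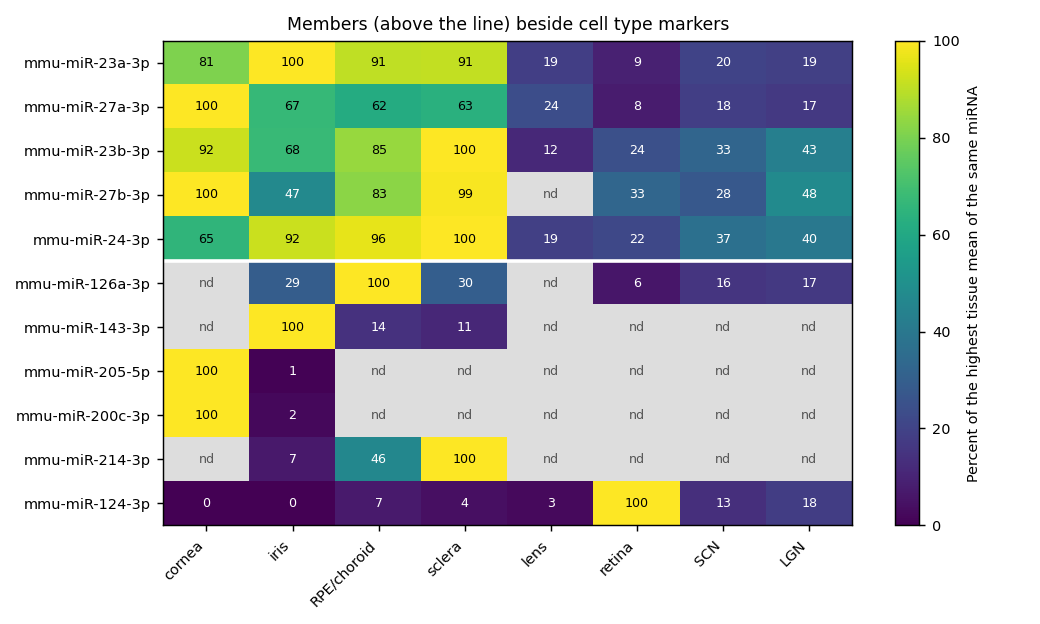
Tissue mean of each member (above the line) and of 6 cell type markers (below), as a percent of the highest tissue mean of the same miRNA; nd marks tissues where the miRNA was not detected on all 3 arrays. In the cornea the members stood at 65.4 to 100% of their highest tissue mean, where mmu-miR-126a-3p and mmu-miR-143-3p were not detected on all 3 arrays and mmu-miR-205-5p was at its highest.

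The lens groups were compared over the 8 tissues, each tissue being a block in the fit. Neither lens shifted the members detectably. For −30 D against normal the log2 differences were −0.05 (miR-23a), −0.04 (miR-27a), −0.02 (miR-23b), −0.13 (miR-27b) and −0.06 (miR-24), with SEs of 0.096 to 0.117 and an adjusted p of 0.99 for each (limma). The 95% intervals ran from −0.38 to 0.19 over the 5 members, with the widest reach for miR-27b (−0.38 to 0.12). For 0 D against normal the differences were 0.10, −0.06, 0.09, 0.09 and −0.07 in the same order, with intervals from −0.29 to 0.34 and adjusted p of 0.935. For −30 D against 0 D they were −0.15, 0.02, −0.11, −0.22 and 0.01. Of the 5 members, 0 passed in each of the 3 comparisons, and 0 reached an unadjusted p of 0.05. Over all 337 miRNAs these comparisons called 0%, 0% and 2.08%, with 16, 25 and 34 miRNAs under an unadjusted p of 0.05. The test of whether the −30 D difference was larger in the 6 eye tissues than in the 2 brain regions called 0 of 5 members (adjusted p = 0.998 for each) and 0% of all miRNAs. The estimates of this difference ran from −0.01 (miR-27a) to 0.06 (miR-23b), with 95% intervals from −0.56 to 0.64.

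Within single tissues the signs were mixed. The −30 D over normal log2 ratio of miR-23a ran from −0.44 in the SCN to 0.24 in the LGN, and was above zero in 3 of 8 tissues. That of miR-24 ran from −0.42 in the SCN to 0.29 in the LGN, above zero in 4 of 8. miR-27b ran from −0.62 in the SCN to 0.31 in the LGN over the 7 tissues where both arrays detected it. For all 5 members the SCN was the lowest and the LGN the highest tissue. By the study's criteria for a change within a tissue (at least 2-fold where both arrays detect the miRNA, 5-fold where one does), with an undetected miRNA set here to 0.1 so that any detection on one array alone counted, no member changed with −30 D in any tissue where it could be compared, that is 0 of 39 pairs of member and tissue, where 17.2% of all miRNA and tissue pairs did. With 0 D the count was 1 of 40, against 15.6% of all pairs. The exception was miR-27b in the lens, which counted through detection on the 0 D array alone. All other member pairs were detected on both arrays and so had to pass 2-fold. The shares of 17.2% and 15.6% also include every pair detected on 1 array alone, so they are not like for like with the members. The share among pairs detected on both arrays was not computed. With one array per tissue and lens group, these single ratios have no replicate check.

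**Figure D4:**
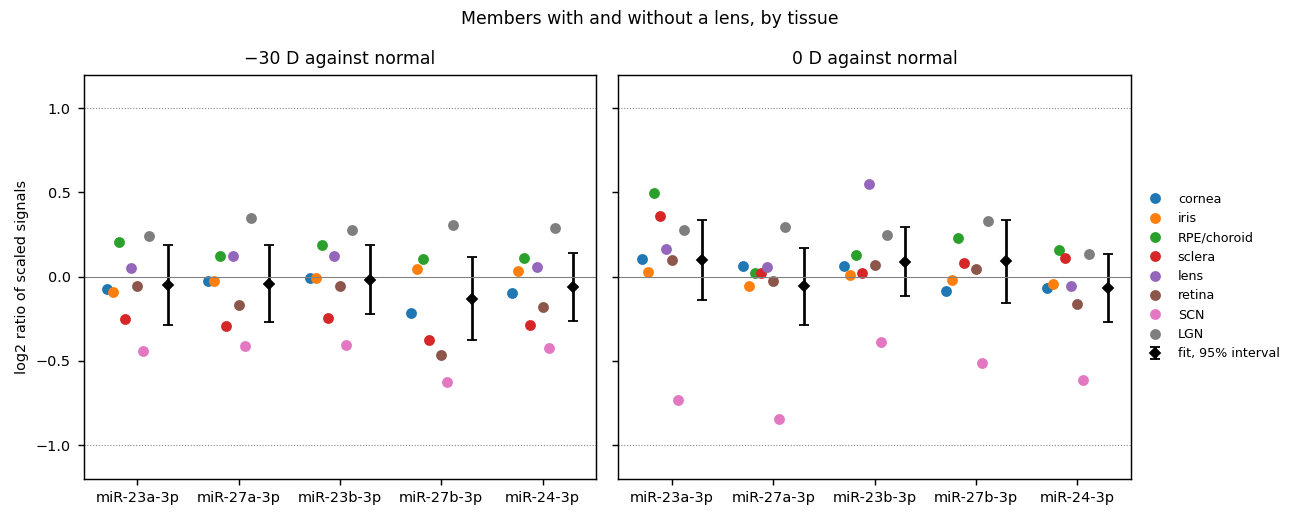
Log2 ratio of scaled signals in each tissue (coloured points) for −30 D and 0 D against normal, with the estimate over the 8 tissues and its 95% interval (black diamonds and bars) and dotted lines at 2-fold. Every point lies within 2-fold, every interval includes zero, and the SCN points lie lowest in both panels.

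The partner strands and overlapping products of the same hairpins were mostly not detected. Of the 9 other products on the arrays, 8 were detected on no array. The exception was mmu-miR-24-1-5p, the partner strand of miR-24 in the b cluster hairpin. It is shown with mmu-miR-24-2-5p, its counterpart in the a cluster hairpin, because they share a seed and come from one miR-24 hairpin each.
mmu-miR-24-1-5p: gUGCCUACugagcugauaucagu
mmu-miR-24-2-5p: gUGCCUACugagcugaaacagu
mmu-miR-24-1-5p was dim. It gave 7.96 (normal), 8.13 (0 D) and 10.4 (−30 D) in the LGN. The RPE/choroid gave 7.71, 5.72 and 8.68, the sclera 9.13, 6.36 and 6.07, and the iris 6.81, 6.34 and 6.77. The LGN was thus level with the eye coats, whereas miR-24-3p itself was lower there. In the retina and SCN it was detected on the normal and 0 D arrays (3.42 and 3.08, and 6.45 and 3.90) but not on the −30 D arrays, whose limits of 6.26 and 8.93 lay above those values. It was not detected on any cornea or lens array, where the limits lay at 16.2 to 27.4 and thus above its level elsewhere. A limit is 3 errors summed over both probes, and 1 probe could be detected below it (3.42 against a limit of 6.39 on the normal retina array). Whether the cornea and lens arrays could have shown mmu-miR-24-1-5p at its level elsewhere was therefore not settled.

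The miRNAs whose log2 signal followed the members most closely over the 24 arrays differed between the clusters. Among 75 other miRNAs detected on every array, mmu-miR-22-3p was closest to miR-23a (Pearson's r = 0.89) and to miR-24 (r = 0.933), and mmu-miR-466f-3p was closest to miR-27a (r = 0.831). mmu-let-7b-5p was closest to both b cluster members, with r = 0.875 for miR-23b and 0.864 for miR-27b. The next were mmu-miR-466f-3p (0.76) and mmu-miR-466i-5p (0.705) for miR-23a, and mmu-miR-22-3p (0.781) and mmu-miR-466h-3p (0.767) for miR-27a. For miR-23b they were mmu-miR-22-3p (0.825) and mmu-miR-21a-5p (0.772), for miR-27b mmu-miR-21a-5p (0.814) and mmu-miR-3473b (0.774), and for miR-24 mmu-let-7b-5p (0.803) and mmu-let-7i-5p (0.767). With the endothelial mmu-miR-126a-3p, r was 0.384 for miR-23a, 0.166 for miR-27a, 0.562 for miR-23b, 0.472 for miR-27b and 0.639 for miR-24. With mmu-miR-143-3p, of smooth muscle and pericytes, r was 0.814, 0.72, 0.503, 0.332 and 0.739 in the same order. With mmu-miR-145a-5p it was 0.498, 0.567, 0.056, −0.092 and 0.242, and with mmu-miR-126a-5p 0.217, 0.411, −0.096, −0.055 and −0.054. All these markers were undetected on the lens arrays and some others, where the array's lowest detected signal was used. The same was done for miR-27b on the lens arrays that did not detect it. The points are 3 arrays of each of 8 tissues, and r describes these arrays without a test.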

How the data were processed

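Total RNA labelled with Cy3 was hybridised to mouse miRNA arrays, 1 per tissue and lens group (24 in all). Per the file headers, the authors scanned and extracted them with Agilent Feature Extraction 10.7.1.1, giving background-subtracted signal intensity for each probe with its error. The deposited intensities were not normalized. The series table of 24 value columns was not used, since its column names do not settle the samples. The signal of a miRNA was the sum over unique probes above 3 errors, then scaled so that the 75th percentile of the 79 miRNAs present on every array was equal, and put on a log2 scale. The 337 miRNAs detected on all 3 arrays of at least 1 tissue were fitted with limma 3.58.1 (R 4.3.3) on tissue and lens group, with undetected values at the array's lowest detected signal, 14 residual degrees of freedom (3.38 added by the prior) and Benjamini-Hochberg adjustment over all 337. Differences between members used the same model, with p-values placed among those of all miRNAs. Nothing says that lens groups of a tissue vary as replicate mice would, so p-values measure the spread between these arrays. The members, marker lists and comparisons were chosen with earlier results of these data known. Text names the members, the other products of their hairpins, the markers and, for each member, the 3 miRNAs most correlated with it. Simulated data had shifts of at least 1 log2 unit, the same spread for every miRNA and no undetected values. There, 50 of 50 changed miRNAs among 337 were recovered for the neural comparison, with 6 false calls, and 50 of 50 for −30 D, with 1 false call. Recovery of smaller shifts, such as the members' differences between lens groups, was not tested. Alternatives were no scaling, quantile normalization, normexp, other floors and filters, the brightest probe, single lens groups or tissues left out, and the eye tissues alone. All probes of each member and leaving out the lens were added after seeing the data. RefSeq gene names and sequences were used as given.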

Additional observations from a re-analysis of the deposited data

Results flagged for a closer look

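The SCN ratio of 0 D over normal lay apart from the ratios of the other 7 tissues for 3 members, with log2 ratios of −0.73 for miR-23a-3p (−0.734), −0.84 for miR-27a-3p (−0.843) and −0.61 for miR-24-3p (−0.612). Of 10 sets of tissue ratios examined, about 1 in 20 would stand apart in this way by chance if the sets were independent. They were not, as they come from the same arrays and the members moved together. The 3 flags come from the same pair of SCN arrays and are not separate events. On that pair of arrays the scaling shifted every ratio by −0.88, the median of all miRNAs detected on both was −0.18 after scaling and 0.70 before it, and the unscaled ratios of the 3 members were 0.15, 0.04 and 0.27. Their place below the median of the array pair was thus the same on both scales by construction.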

How the results depend on the processing

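The rise of the b cluster over the a cluster in neural tissue kept its direction and its call under every alternative run (1.05 to 1.88), as did the lower level of miR-23a (−2.82 to −1.43), miR-27a (−2.90 to −1.43) and miR-24 (−1.57 to −0.33). Without scaling 3 of 5 members passed for neural tissue, and miR-27b was at 0.051 (0.226 with undetected values at 0.1). For miR-27a minus miR-23a in neural tissue the value was −0.120 with quantile normalization, where it passed (adjusted p = 0.0443), 0.063 with normexp, 0.002 with the brightest probe, 0.134 without the lens, and between −0.047 and 0.024 with one lens group left out. In the vascular comparison, leaving out the lens left 3 of 5 members past the threshold and gave −0.647 for miR-27a, −0.147 for miR-23b, −0.462 for miR-27b, −0.352 for miR-23b minus miR-23a and −0.083 for the b over the a cluster. Normexp gave −0.303 for miR-27b, −0.216 and −0.512 for the differences of the miR-23 and miR-27 paralogs and −0.364 for the b over the a cluster. miR-23b minus miR-23a was −0.004 with the brightest probe, and miR-27b minus miR-23b was 0.487 with quantile normalization and 1.868 with undetected values at 0.1. The causes were not tested. Of the small lens differences, none of which passed under any alternative, −30 D ran, with one tissue left out, from −0.093 (without the LGN) to 0.004 (without the SCN) for miR-23a, from −0.097 to 0.011 for miR-27a and from −0.059 to 0.038 for miR-23b with the same tissues left out, with 0.015 for miR-23b without the sclera. For 0 D, miR-27a gave 0.184 without scaling, 0.019 with quantile normalization, 0.013 in eye tissues alone, and −0.109 (without the LGN) to 0.054 (without the SCN) with one tissue left out. miR-24 gave 0.176 without scaling and −0.099 (without the RPE/choroid) to 0.011 (without the SCN) with one tissue left out, and miR-27b −0.049 with normexp. The count of 1 within tissues for 0 D became 0 with undetected values at the lowest detected signal and 0 with normexp. Scaling to the percentile over all miRNAs was not run, because that percentile (−0.28 to 3.20) was not above zero on every array, nor was the deposited table. Normexp used median spot signals. The labels carry no replicate numbers to pair arrays by, and the fits compared lens groups within tissues. Dim signals on lens and cornea arrays limit what can be said of miR-27b and miR-24-1-5p there.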
